A study of Mus musculus with 10 samples.

Results

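The comparison described here is that of islet grafts removed on day 3 with those removed on day 1 after transplantation, over 4 of the 10 arrays of the series. The recipients were male Swiss nu/nu (nude, athymic) mice with diabetes induced by streptozotocin, and islets of Wistar rats were placed over their abdominal musculature. PSI grafts held the islets in a plasma-based scaffold made from rat plasma, while PSI-F grafts also contained cultured mouse skin fibroblasts, grown from whole nu/nu skin digested without separating dermis from epidermis. Each of the 4 groups (PSI day 1, PSI-F day 1, PSI day 3, PSI-F day 3) has 1 array, so graft type served as the pair: PSI day 3 minus PSI day 1 and PSI-F day 3 minus PSI-F day 1. RNA came from one part of a divided graft and only the RNA of best quality was hybridised, but the sources read here do not say whether an array holds 1 mouse or a pool. The other 6 arrays, of day 7 and day 10 grafts of both types and of subcutaneous biopsies from mice without a graft (Control and Diabetic), enter below only as references.

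Healing of implanted tissue is commonly described as overlapping phases. In the first, platelets, neutrophils and monocytes fill the site and cytokines and interferons induce their target genes. Macrophages then take up dead cells and debris, and fibroblasts migrate in and replace the provisional fibrin matrix with collagen and other proteins.

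Expression is given as the log2 level that RMA assigned to a probe set, on which a difference of 1 is a 2-fold change. Array medians lay between 2.82 and 2.94, and levels near them are close to background. The 18193 genes with a probe set of 1 symbol were counted, each by the probe set that was highest on average over the 10 arrays. A gene was counted as changed when it was at least 2-fold apart in the same direction in both graft types. Taken alone, PSI had 285 genes higher and 184 lower on day 3 by this limit (1.57% and 1.01% of all genes), and PSI-F had 470 and 291 (2.58% and 1.6%). Both graft types shared 77 higher genes (27% of those of PSI and 16.4% of those of PSI-F) and 84 lower genes (45.7% and 28.9%). Over all genes these 77 are 0.423% and the 84 are 0.462%, which is the background for list members that passed in both graft types. In contrast, 39 genes passed upward in PSI and downward in PSI-F, and 13 showed the reverse. Across genes, which are not independent replicates, the differences of both graft types correlated with r = 0.19, and with r = 0.30 for the 10099 genes with a mean level of at least 4. The median difference over all genes was 0.01. When a gene's probe sets were averaged, 10 genes named below no longer passed (Trem2, Gpnmb, Tnc, Thbs2, Col5a3, Col14a1, Cxcl12, Angptl4, Adamts12 and Hbb-b2).

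Of the 77 higher genes, 73 had both day 3 levels above both day 1 levels, and for 83 of the 84 lower genes the day 3 levels were below both day 1 levels. Choosing the genes by their differences on these same 4 arrays largely sets these counts, so they are a description and no separate support. On 4 arrays limma, with graft type as a term, called 144 genes higher (0.792% of all genes) and 119 lower (0.654%) at an adjusted p under 0.05. It called all 77 and 83 of the 84, but it read the same 4 arrays that chose these genes, so this is no separate support. That fit has 1 residual degree of freedom, and when the spread was taken from all 8 grafts only 40 of the 77 and 43 of the 84 were called. The calls were lost altogether in several other settings, given in the closing section, so the values on the 4 arrays carry the description. Just inside the 2-fold limit were Pon3 at 1.003 and Slfn8 at -1.001 (the smaller of both differences), and just outside it Fbxo32 at 0.997 and Abra at -0.986. Spike-in controls (42 probe sets) had mean differences between -0.29 and 0.21.

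**Figure D1:**
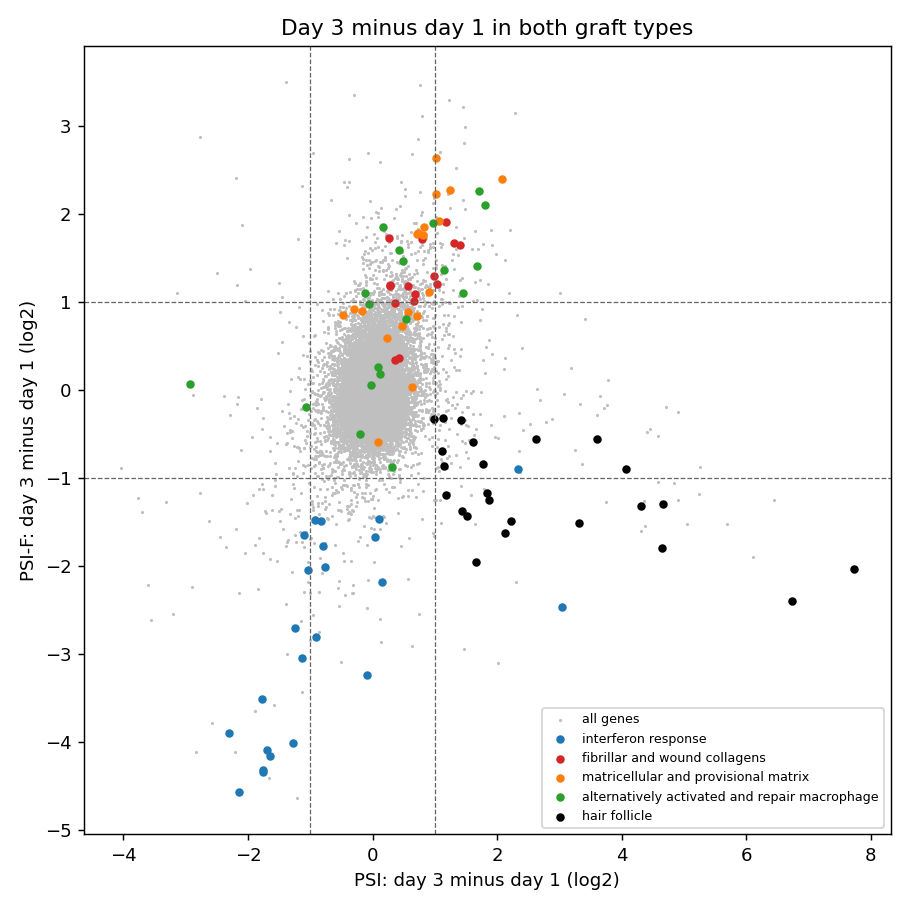
Day 3 minus day 1 (log2) of each gene in PSI (horizontal axis) and PSI-F (vertical axis), with members of 5 gene lists in colour and dashed lines at 2-fold. Interferon response genes (blue) lie mainly to the lower left, collagen, matricellular and repair macrophage genes (red, orange, green) mainly to the upper right, and hair follicle genes (black) to the lower right, higher in PSI and lower in PSI-F.

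Interferon response genes were lower on day 3 in both kinds of graft. Of 23 measured list members, 12 were at least 2-fold lower in both and none was higher in both, while limma on 4 arrays called 16 lower. The median difference was -1.66 (-1.04 in PSI and -2.70 in PSI-F). The median level of the list on the arrays was 6.52 (PSI) and 7.43 (PSI-F) on day 1 and 5.79 and 4.55 on day 3, against 3.85 in Control and 3.61 in Diabetic. Rsad2, which encodes the antiviral enzyme viperin, stood on day 1 at 8.84 (PSI) and 9.70 (PSI-F), and on day 3 at 6.54 and 5.81. Mx1, an antiviral GTPase, stood at 6.19 and 7.05 on day 1 and at 4.05 and 2.48 on day 3, the last being at background. For Ifit1, which binds foreign RNA, day 1 levels of 6.52 and 7.41 were followed by 4.75 and 3.09. In all of them the days did not overlap, PSI-F was the higher graft on day 1, and PSI-F was the lower graft on day 3.

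Mean differences were -3.10 ± 0.32 (limma SE, n = 2 graft types) for Rsad2, -3.36 ± 0.43 for Mx1 and -3.04 ± 0.45 for Ifit1. Each limma SE here and below rests mostly on a spread pooled over all probe sets, and little on the gene's own agreement between graft types. In the same order, adjusted p values from limma were 0.00354, 0.00953 and 0.0151 on 4 arrays. With the spread of 8 grafts they were 0.0328, 0.0556 and 0.103, so only that of Rsad2 stayed under the threshold. These genes were named for large differences on the same 4 arrays, which both fits read, so their p values are no separate support. Ifit3, a partner of Ifit1, went from 7.40 and 8.31 to 5.64 and 3.97, and Oasl1, of the oligoadenylate synthetase family, from 6.14 and 6.90 to 4.36 and 3.39 (PSI and PSI-F). Cmpk2, a nucleotide kinase encoded beside Rsad2, had 5.47 and 6.42 on day 1 against 3.25 and 2.30 on day 3. Ifi209, of the interferon-inducible p200 family, had 6.88 and 7.37 against 4.999 and 3.72. The list was not uniform, since Xaf1 differed by 3.04 in PSI and by -2.47 in PSI-F, and Gbp2, Gbp3 and Igtp had PSI differences between 0.05 and 0.15 and PSI-F differences between -2.18 and -1.47.

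Promoters of 3 of these genes are shown because they were lower in both grafts and hold the core of the interferon-stimulated response element, TTTCNNTTT. The sequences are the 150 bases before the start site in RefSeq (GRCm38.p6), written 5′ to 3′ on the strand of the gene, with matches on either strand in capitals. Rsad2 lies at chr12:26456453-26456602 (minus strand), Ifit1 at chr19:34640739-34640888 (plus strand) and Ifit3 at chr19:34583379-34583528 (plus strand).
Rsad2: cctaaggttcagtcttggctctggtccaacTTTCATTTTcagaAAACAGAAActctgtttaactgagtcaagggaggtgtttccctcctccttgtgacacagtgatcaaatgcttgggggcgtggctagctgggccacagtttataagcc
Ifit1: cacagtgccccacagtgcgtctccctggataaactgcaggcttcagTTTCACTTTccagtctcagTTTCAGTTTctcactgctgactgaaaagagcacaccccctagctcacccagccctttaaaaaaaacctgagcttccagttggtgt
Ifit3: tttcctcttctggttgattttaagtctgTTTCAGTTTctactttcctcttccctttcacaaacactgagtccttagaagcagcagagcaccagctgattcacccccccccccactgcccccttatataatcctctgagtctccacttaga
Rsad2 and Ifit1 hold 2 matches each and Ifit3 holds 1, while the same stretch of Oasl1 holds 0 and is not printed. In windows from 250 bases before to 50 after the start, 13 of the 17 list genes with an entry (76.5%) had a match, as did 6 of the 9 of them that were 2-fold lower in both grafts (66.7%), against 12.1% of 27025 genes. A match is a description of the letters and no proof of binding.

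Several named genes outside the interferon list were lower on day 3 in both graft types, whereas lists of inflammation were mixed. Of 18 inflammatory cytokine genes none passed in both grafts, which is no result beside backgrounds of 0.423% and 0.462%, and their median difference was 0.04. Of 16 acute phase and complement genes 3 passed upward and 3 downward. Among genes with a mean level of at least 4, the largest smaller-of-both difference was that of Slfn3, a member of the Schlafen family, with 6.16 and 6.86 on day 1 and 3.32 and 2.75 on day 3 (mean difference -3.47 ± 0.28). Its relative Slfn4, a gene of myeloid cells, went from 9.85 and 9.26 to 6.24 and 7.05, and probes of such close relatives may cross-hybridise. Orm2, an acute phase glycoprotein, had 6.20 and 5.57 on day 1 against 2.64 and 2.96. Lcn2, the siderophore-binding lipocalin of neutrophils and inflamed epithelia, had 10.06 and 10.05 against 7.44 and 8.57. All 4 genes were lower in both day 3 grafts than in either day 1 graft. On day 3 Slfn3 in PSI-F and Orm2 in both grafts were at background, which limits the size of their differences. Gal, which encodes the neuropeptide galanin, also fell, from 6.39 and 5.69 to 3.18 and 3.14, close to its levels of 2.69 in Control and 2.82 in Diabetic.

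Among 8 chemokines that attract monocytes, 3 were at least 2-fold lower in both grafts and 1 was higher. Ccl12, a ligand of Ccr2, had 7.51 and 7.85 on day 1 and 5.36 and 5.54 on day 3. Ccl7, another Ccr2 ligand, had 7.58 and 8.04 against 5.86 and 6.66, and Ccl4, a chemokine of activated macrophages, 5.85 and 6.02 against 4.24 and 4.82. Ccl8 was the exception, with 8.01 and 8.26 on day 1 rising to 10.13 and 9.75, a mean difference of 1.80 ± 0.21. Ccl2 differed by -1.65 in PSI and -0.70 in PSI-F and so did not pass in both.

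Several macrophage genes of clearance and repair were higher on day 3, though not all members of their list. The 3 chains of C1q, the recognition component of the classical complement pathway and a product of macrophages, were among the 12 largest increases by the smaller of both differences at a mean level of at least 4. C1qa went from 6.45 (PSI) and 7.05 (PSI-F) on day 1 to 8.43 and 8.60 on day 3. C1qb rose from 6.43 and 6.81 to 8.64 and 8.63, and C1qc from 5.37 and 5.85 to 7.29 and 7.50. Both day 3 grafts were close to each other for each chain and clear of both day 1 grafts. The mean difference of C1qb was 2.01 ± 0.19, with a limma adjusted p of 0.00344 on 4 arrays and 0.0104 with the spread of 8 grafts. As C1qb was named for its difference on the 4 arrays, which both fits read, these p values are no separate support.

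Of 19 measured genes of alternatively activated and repair macrophages, 5 were at least 2-fold higher in both grafts and none was lower, and limma called 6 higher. Their median difference was 0.68 (0.32 for PSI, 1.10 for PSI-F). Trem2, a receptor for lipids and apoptotic cells, had 4.02 and 4.18 on day 1 and 5.83 and 6.28 on day 3. Cd163, the scavenger receptor for haemoglobin-haptoglobin complexes, had 5.61 and 4.93 against 7.33 and 7.19. Clec10a, a galactose-type lectin, had 5.93 and 5.62 against 7.60 and 7.03. In Control and Diabetic Gpnmb, a glycoprotein of phagocytes, stood at 7.82 and 7.83, above both day 3 grafts (7.18 and 7.36). Folr2, a folate receptor, stood there at 4.52 and 4.98, below its day 3 levels of 7.25 and 7.04. From day 1 to day 3 the mean rise was 1.25 ± 0.19 for Gpnmb and 1.28 ± 0.19 for Folr2. Chil3, in contrast, differed by -2.92 in PSI and 0.07 in PSI-F, so this list did not move as a whole.

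Among 19 general monocyte and macrophage markers only Csf1r, the receptor of the macrophage growth factor, was 2-fold higher in both grafts, with 8.68 and 8.92 on day 1 and 9.71 and 10.21 on day 3. The median difference of that list was 0.30 (0.27 for PSI, 0.50 for PSI-F), and no difference between it and the repair list was tested. Its median level was 7.86 and 7.92 on day 1 and 7.91 and 8.34 on day 3, far above 4.39 in Control. In whole tissue, fewer cells of a type and less RNA per cell cannot be told apart. Fcgr1, the high-affinity receptor for IgG, went the other way, from 8.25 and 8.80 to 7.40 and 6.51, less than 2-fold in PSI. Hmox1, which breaks down haem, rose from 7.00 and 6.50 to 8.47 and 9.30 and was the sole gene of 13 in the metallothionein and oxidative stress list to pass in both. Pltp, which transfers phospholipids between lipoproteins, rose from 7.76 and 7.83 to 9.54 and 9.50.

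**Figure D2:**
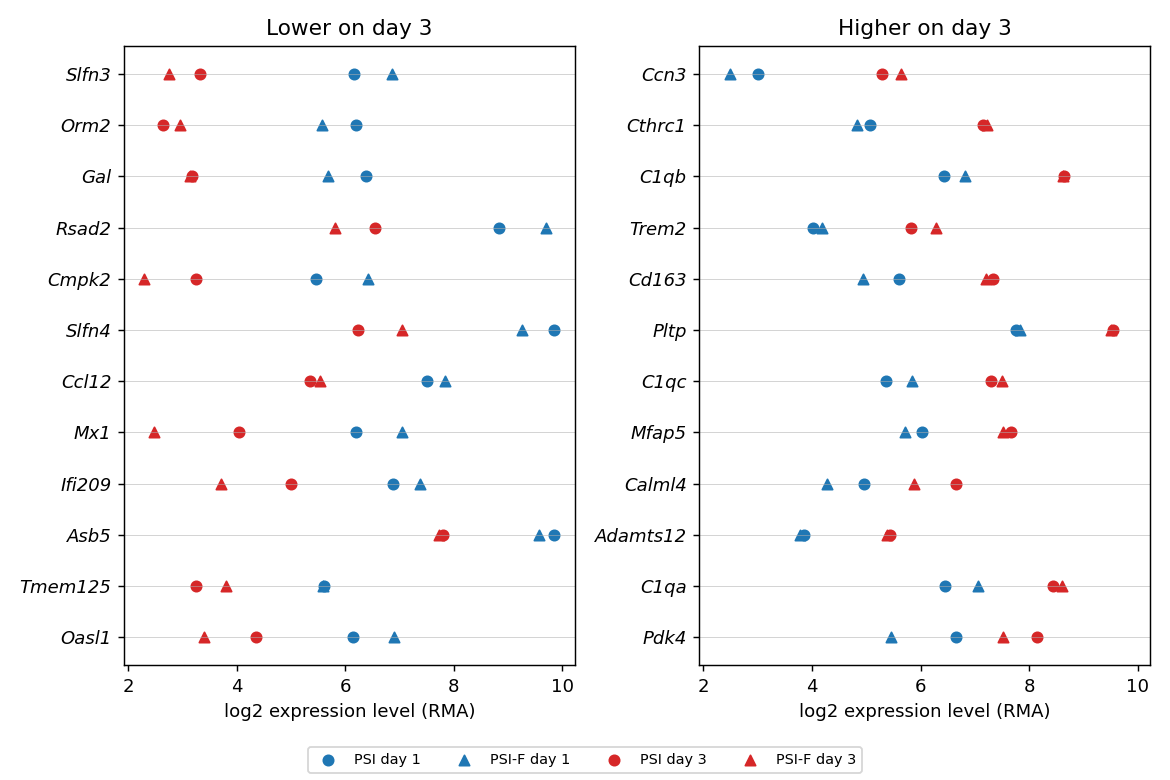
Log2 expression levels (horizontal axis) of the 12 genes per direction with the largest smaller-of-both differences, with day 1 in blue and day 3 in red, circles for PSI and triangles for PSI-F. For each of the 24 genes both arrays of a day lie on the same side of both arrays of the other day, which their choice on these arrays largely sets.

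Genes of the extracellular matrix were higher on day 3 in both graft types, including PSI, to which no fibroblasts had been added. All 15 fibrillar and wound collagens had positive differences in both grafts, with a median of 0.88 (0.67 in PSI and 1.20 in PSI-F). Of them 4 passed 2-fold in both, and limma on 4 arrays called 6. Col5a2, a chain of the collagen that starts fibril assembly, had 8.65 and 8.38 on day 1 and 9.96 and 10.06 on day 3. Col5a1 had 7.01 and 6.54 against 8.20 and 8.45, and Col5a3 5.97 and 6.06 against 7.37 and 7.71. These 3 chains make up type V collagen, and in each the lower day 3 graft exceeded the higher day 1 graft. Col14a1, a fibril-associated collagen, rose by 1.12 ± 0.19. Col1a2, a chain of the main fibrillar collagen, differed by 0.99 in PSI and 1.30 in PSI-F, just short of the limit in PSI.

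Matricellular and provisional matrix genes had the highest list median, 1.01, and 5 of 19 passed in both grafts (8 by limma on 4 arrays). Cthrc1, a secreted protein of activated fibroblasts, had 5.07 and 4.84 on day 1 and 7.15 and 7.23 on day 3. Its mean difference was 2.24 ± 0.19, with limma adjusted p values of 0.0017 on 4 arrays and 0.00689 with 8 grafts. Because Cthrc1 was named for its difference on the 4 arrays, which both fits read, these p values are no separate support. Tnc, the wound glycoprotein tenascin C, had 6.88 and 6.82 against 7.91 and 9.04. Thbs2, a thrombospondin, had 6.61 and 6.27 against 7.68 and 8.19. These genes were higher in both day 3 grafts, and PSI-F held the highest level of each. Tnfaip6, which links hyaluronan to proteins, changed by 1.02 in PSI and 2.64 in PSI-F. Has2, a hyaluronan synthase, changed by 1.24 and 2.27, from day 1 levels of 2.42 and 2.24 that are at background. Among genes with a mean level of at least 4, the largest smaller-of-both increase was that of Ccn3, a further matricellular protein outside the list, with 3.01 and 2.495 on day 1 and 5.29 and 5.64 on day 3, the former being at background.

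No gene of 17 for collagen processing passed 2-fold in both grafts, a count that is no result beside backgrounds of 0.423% and 0.462%. At any size 16 were higher in both, against 27.8% of all genes, and the median was 0.68. Of 20 matrix proteases and inhibitors 1 passed, Mmp12, the macrophage elastase, from 4.34 and 4.95 to 5.79 and 7.11. Adamts12, a metalloprotease outside that list, rose from 3.85 and 3.78 to 5.44 and 5.39. Fibroblast markers had a median of 0.86, and 2 of 14 passed. These were Mfap5, a microfibril protein, with 6.02 and 5.71 against 7.66 and 7.52, and Fap, a serine protease of activated fibroblasts, with 5.59 and 5.03 against 6.89 and 6.17. On day 1 the fibroblast list had a median level of 6.56 (PSI) and 6.24 (PSI-F) against 7.54 and 7.65 on day 3, so PSI-F did not stand above PSI on day 1. Of 15 myofibroblast and contractile genes 0 passed in both, which beside the backgrounds of 0.423% and 0.462% is no result about them. Their median was 0.07.

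Of 20 sprouting and angiogenic ligands and receptors 2 passed 2-fold upward in both grafts. Of 20 endothelial markers 0 passed in either direction, beside backgrounds of 0.423% and 0.462%, so the count is no result about them. Their median was 0.38, and 15 of the 20 were higher in both grafts at any size, against 27.8% of all genes. Cxcl12, a chemokine that recruits cells bearing Cxcr4, rose from 6.99 and 7.30 to 8.26 and 8.77, and Angptl4, a lipase inhibitor induced by fasting and hypoxia, from 5.53 and 5.63 to 6.56 and 7.41. Vegfa, the main endothelial growth factor, differed by -0.10 in PSI and 0.51 in PSI-F. Pdk4, which blocks glucose oxidation and is induced by fasting, went from 6.65 and 5.45 to 8.14 and 7.51, and Calml4, a calmodulin-like gene, from 4.95 and 4.27 to 6.65 and 5.87.

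**Figure D3:**
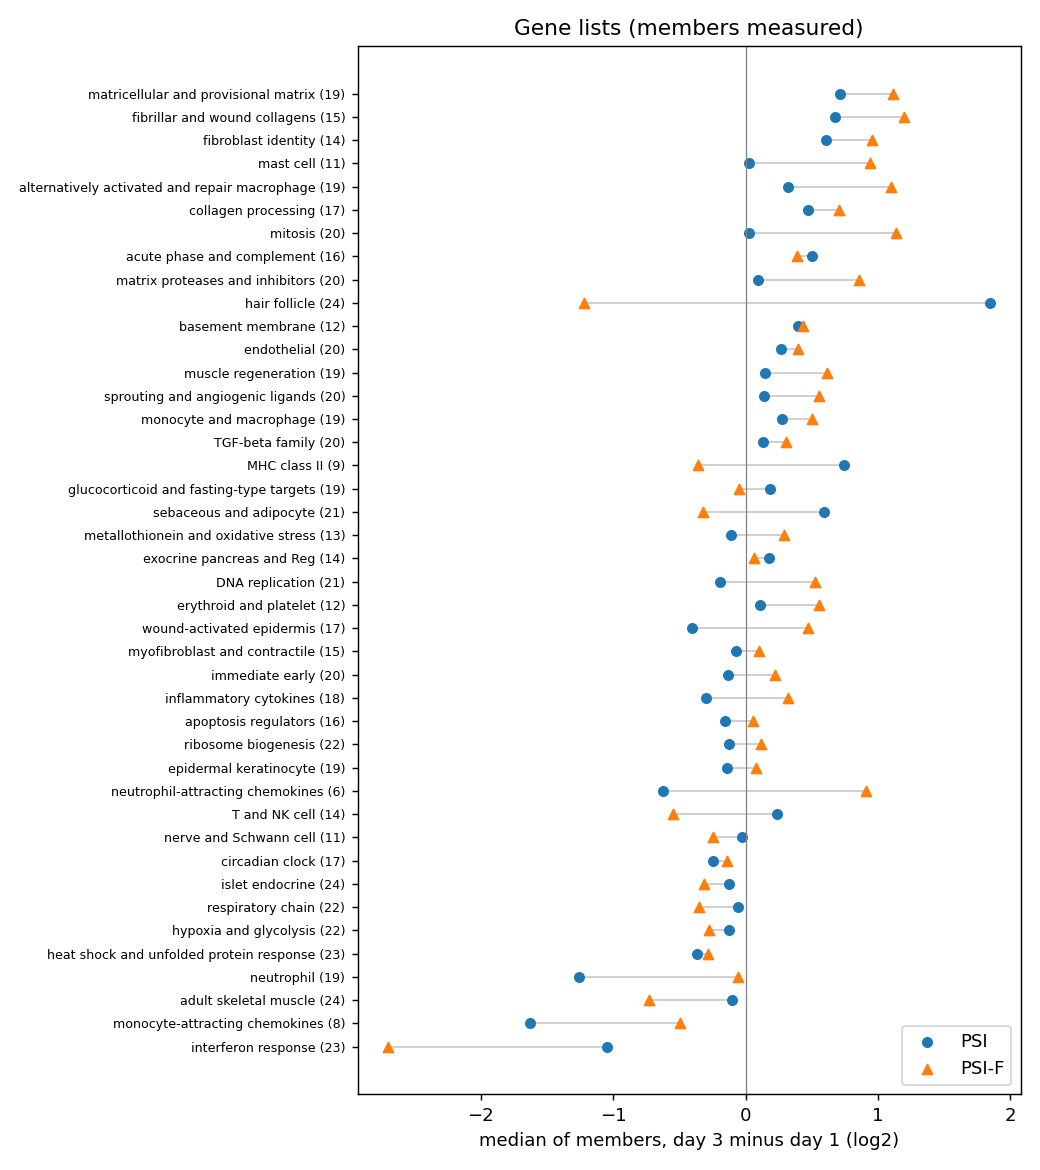
Median difference of each of 42 gene lists between day 3 and day 1 (log2, horizontal axis) in PSI (blue circles) and PSI-F (orange triangles), with the number of members measured in brackets. Lists are ordered by the median of the mean difference, with interferon response and monocyte-attracting chemokines at the bottom and matricellular genes and collagens at the top. Lists that stand far apart between graft types include hair follicle, interferon response, neutrophil-attracting chemokines, neutrophil and mitosis.

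Ins2, the brightest islet hormone gene, was lower on day 3. The islets came from rats, so their transcripts are seen only where they bind mouse probes. Ins2, an insulin gene, had 10.60 and 10.59 on day 1 (PSI and PSI-F) and 8.95 and 8.67 on day 3. Later it was at 10.16 and 9.95 on day 7, above both day 3 levels, and at 7.70 and 9.40 on day 10. Neurod1, a transcription factor of endocrine cells, had 4.13 and 3.85 against 2.31 and 2.16, and Ppy, the pancreatic polypeptide, 2.78 and 3.15 against 1.54 and 1.502. From day 1 to day 3 Ins2 fell by a mean of 1.79 ± 0.19. Its limma adjusted p values, no separate support for a gene named by its difference on these arrays, were 0.00417 on 4 arrays and 0.172 with 8 grafts. Ins2, Neurod1 and Ppy were the 3 of 24 measured members that passed in both, all lower. However, Ppy lay near the array medians on day 1 and Neurod1 did so on day 3. Only 6 members had a mean level of at least 4, and of these only Ins2 passed. Cpe, a hormone-processing enzyme, differed by -0.40 and 0.31, Iapp, the islet amyloid peptide, by -0.58 and -1.52, and Sst, somatostatin, by -1.09 and -0.57 (PSI and PSI-F). Gcg, the glucagon gene and a defining marker, lay between 1.28 and 1.54 on all 4 arrays, below the array medians. Among the genes of the pancreas that the study names, Reg3g, a secreted lectin, had 1.37 and 1.76 on day 1 and 2.61 and 5.05 on day 3. Reg1, of the same family, had 0.78 and 1.34 against 1.55 and 4.80. For both genes PSI lay below the array median on both days, and PSI-F rose above it on day 3.

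Skeletal muscle genes were high on all 4 arrays. The median level of 24 adult muscle genes was 11.47 in PSI and 11.66 in PSI-F on day 1 and 11.31 and 10.82 on day 3. None passed 2-fold in both grafts, which beside the backgrounds of 0.423% and 0.462% is no result about them. At any size 18 of the 24 were lower in both, with a median difference of -0.39. The share of all genes lower in both at any size was not counted, so the 18 are a description only. Myh3, the embryonic myosin heavy chain of newly formed fibres, was the sole member of 19 regeneration genes to pass in both. It went from 1.59 and 1.45, below the array medians, to 3.49 and 3.27. Asb5, a gene of muscle and its satellite cells, went the other way and fell from 9.85 and 9.57 to 7.80 and 7.73. The part of muscle content in these results was not tested. Tmem125, which encodes a membrane protein, fell from 5.61 and 5.58 to 3.25 and 3.80.

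Some gene groups differed in one graft type alone or in opposite directions, and none of these contrasts was tested, since each group has 1 array. Of 20 mitosis genes, 14 passed 2-fold upward in PSI-F, where 2.58% of all genes did, and none in PSI, with medians of 1.14 and 0.02. The list had a median level of 5.06 in PSI and 4.08 in PSI-F on day 1 but 5.10 and 5.14 on day 3, so both graft types were level on day 3. Neutrophil genes had a median of -1.26 in PSI, where 11 of 19 were at least 2-fold lower against 1.01% of all genes. In PSI-F their median was -0.05, but 4 were at least 2-fold higher and 1 was lower, against 2.58% and 1.6% of all genes. Lcn2 was the 1 neutrophil list member to pass in both. The 6 neutrophil-attracting chemokines had medians of -0.62 in PSI, where 3 were at least 2-fold lower, and 0.91 in PSI-F, where 3 were at least 2-fold higher. In the erythroid and platelet list the single member to pass was Hbb-b2, a globin gene. It had 2.88 and 2.04 on day 1, near or below the array medians, and 3.97 and 4.75 on day 3.

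Hair follicle genes were higher on day 3 in PSI, where 23 of 24 passed the 2-fold limit against 1.57% of all genes, and lower in PSI-F, with medians of 1.85 and -1.22. Their median level on day 1 was 5.20 in PSI and 3.98 in PSI-F, and on day 3 it was 8.60 and 3.02, against 10.11 in Control and 9.24 in Diabetic. No hair follicle list member is among the shared 77 or 84 genes. No keratin or keratin-associated gene is among them either, so leaving these genes out could not change the counts and says nothing about hair content. The part of hair content in the other results was not tested. Among cytokines the study names, Il1b had 7.78 and 7.03 on day 1 (PSI and PSI-F) and 5.74 and 8.04 on day 3, so it was lower on day 3 in PSI and higher in PSI-F. Il6 was at 4.06 and 3.12 on day 1, and on day 3 it was 3.76 in PSI and 6.47 in PSI-F. Chil1, a chitinase-like protein, differed by -0.20 in PSI and 1.15 in PSI-F.

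**Figure D4:**
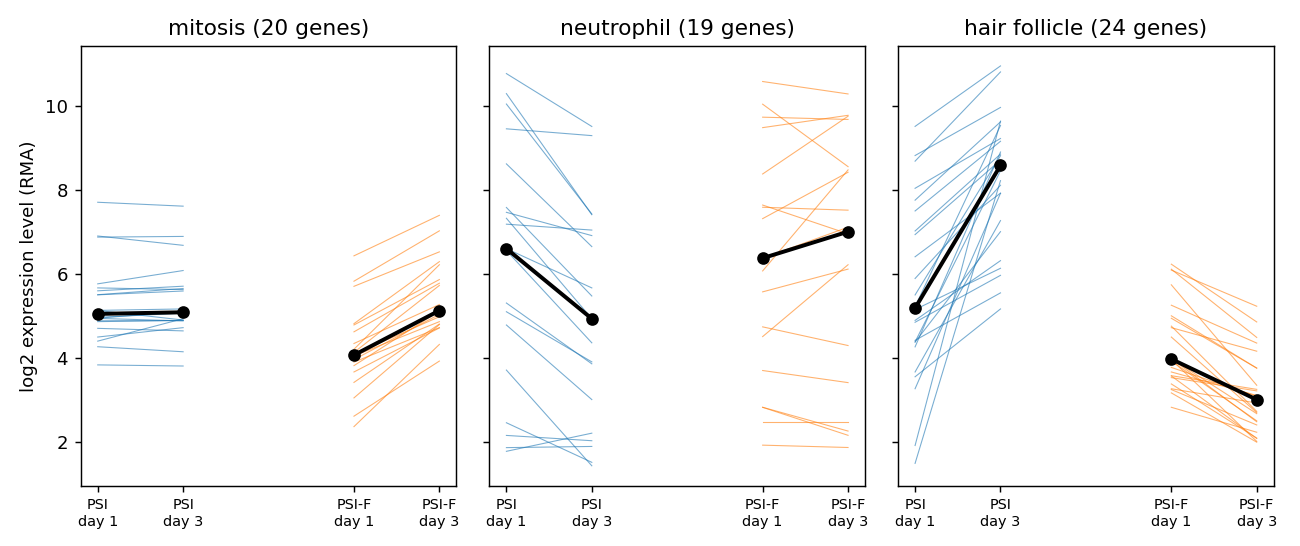
Log2 expression levels of the members of the mitosis, neutrophil and hair follicle lists on days 1 and 3 (thin lines, PSI in blue and PSI-F in orange) with their median (black). Mitosis genes were higher on day 3 in PSI-F, at the level that PSI had on both days, neutrophil genes were lower in PSI, and hair follicle genes were higher in PSI and lower in PSI-F.

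The later arrays, which bore on the choice of probe sets but not on the choice of genes, show how far both sets moved afterwards. The median level of the 77 higher genes was 5.12 and 4.93 on day 1 and 6.63 and 6.38 on day 3 (PSI and PSI-F), and it was 6.44 and 6.42 on day 7 and 6.12 and 6.08 on day 10. Taking the mean of both graft types, 32 of the 77 were at or above their day 3 mean on day 7, 37 lay between the means of days 1 and 3, and 8 were at or below day 1. Cthrc1 was at 9.07 and 8.75 on day 7 and at 7.57 and 7.37 on day 10, and Ccn3 at 6.89 and 6.64 and then at 7.29 and 6.27. Tnfaip6 was at 6.16 and 5.92 on day 7 and Has2 at 2.86 and 3.10, while Cd163 was at 4.35 and 4.85. C1qb held 8.72 and 9.04 on day 7 and 8.53 and 8.36 on day 10. Cthrc1 and Ccn3 were thus above their day 3 levels on day 7, Tnfaip6 and Has2 were below theirs, C1qb was above its own, and Cd163 was below its day 1 levels.

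The median of the 84 lower genes was 6.52 and 6.88 on day 1, 5.07 and 4.42 on day 3, 4.31 and 5.03 on day 7 and 4.32 and 4.44 on day 10. On day 7, 39 of them were at or below their day 3 mean and 45 lay between the means of days 3 and 1, and on day 10 these counts were 58 and 26. None was back at its day 1 mean on either day, and the biopsies had medians of 3.53 (Control) and 3.19 (Diabetic). Rsad2 on day 7 was 6.36 in PSI and 7.70 in PSI-F, so in PSI-F it stood above its day 3 level. The whole interferon list did likewise in PSI-F, with a median level of 4.55 on day 3 and 6.28 on day 7, against 5.79 and 5.36 in PSI. Orm2, at 1.58 and 1.83 on day 7, was close to the biopsies (1.39 in Control and 1.66 in Diabetic).

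**Figure D5:**
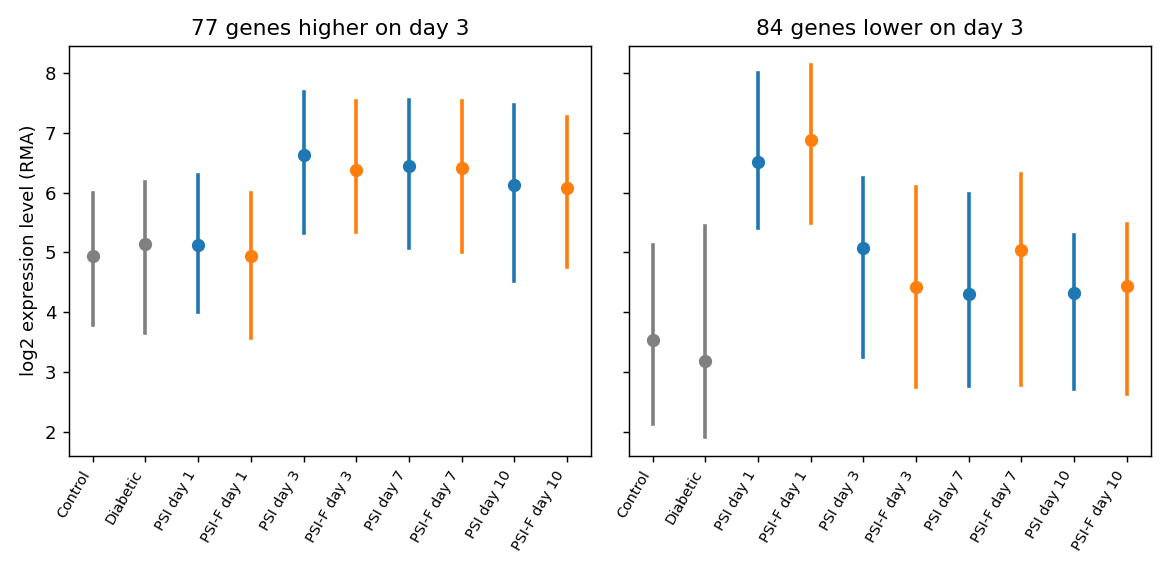
Median log2 expression level (points) and quartiles (bars) of the 77 genes higher and the 84 genes lower on day 3 in both graft types, over all 10 arrays. Days 1 and 3 chose the genes; on days 7 and 10 the higher set has medians between 6.08 and 6.44 and the lower set between 4.31 and 5.03.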

How the data were processed

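Expression was measured on Affymetrix mouse arrays, 1 per group, and depth does not apply; the number of arrays limits precision. The deposited values are log2 levels, 1 per probe set, that the authors computed by RMA; per the submitters' processing notes this used affy 1.36.0 under R 2.15.0. Quantile normalization within RMA sets all arrays to a common distribution, so changes are relative to the bulk of genes.

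Of 45101 probe sets, 64 controls were left out and 45037 tested. Among these 34945 carry 1 gene symbol, 932 several and 9160 none. Genes were named from the platform annotation, updated through RefSeq. Of 792 list entries in 42 lists, 735 matched.

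Day 3 minus day 1 was fitted with limma 3.58.1 (R 4.3.3) with graft type as a term and Benjamini-Hochberg adjustment over all probe sets. The fit draws each gene's spread toward a value pooled over all probe sets, with 8.599 prior against 1 residual degree of freedom. Its SE and p-values thus rest mostly on that pooled spread and little on how well a gene's own graft types agree. Where nothing says that samples are separate animals, p-values reflect only spread between these arrays and none between animals. The fit was tested on simulated data, where it gave more false calls than its threshold allows. Counts and plots used matplotlib 3.10.9, numpy 2.4.6 and pandas 2.3.3 under Python 3.11.15.

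Named genes were, per direction, the 12 genes with a mean level of at least 4 and the largest smaller-of-both differences, up to 5 members per list in its main direction and 2 in the other, and those the study names. The genes, lists and rule were chosen with earlier results of these data known. Vegfa, Xaf1, Gbp2, Gbp3, Igtp, Gcg, Cpe, Iapp, Sst and the genes of the closing section other than those above were added after their values were seen. Alternatives were cyclic loess (3 iterations), a filter on dim probe sets, no graft type term, the spread of 8 grafts, an intensity trend, leaving out each array, averaging a gene's probe sets, and other fold limits. A maximum likelihood prior was added after the data were seen.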

Additional observations from a re-analysis of the deposited data

Results flagged for a closer look

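Results for the hair follicle list and for Il1b stand out because both graft types moved in opposite directions between days 1 and 3, and with 1 array per group neither difference was tested. The median of the hair follicle list was 1.85 higher on day 3 in PSI and differed by -1.22 in PSI-F. Il1b, the gene of interleukin 1 beta, differed by -2.05 in PSI and 1.01 in PSI-F.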

How the results depend on the processing

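The 77 higher and 84 lower genes became 81 and 83 after cyclic loess, 66 and 65 with a filter on dim probe sets and 57 and 72 when a gene's probe sets were averaged, all within 1.5 times of the counts given. At 4-fold they were 2 and 10, and at 1.5-fold 298 and 224. No list median changed sign after loess. With the dim filter 3 medians near 0 did, those of inflammatory cytokines (0.04 to -0.09), immediate early genes (0.06 to -0.08) and apoptosis regulators (0.01 to -0.03), and with averaged probe sets that of apoptosis regulators did (-0.09).

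The calls of limma depended strongly on the setting. On 4 arrays 225 probe sets were called higher and 252 lower. The counts were 10 and 16 without the graft type term, 88 and 133 with the spread of 8 grafts, and 376 and 386 with an intensity trend. They were 0 and 0 after cyclic loess (4048 probe sets at an unadjusted p under 0.05, smallest adjusted p 0.0642), 0 and 0 with the dim filter (2208 probe sets, 0.0532) and 0 and 0 with the maximum likelihood prior, chosen after the data were seen (3620 probe sets, 0.115). Leaving out each array in turn gave 0 to 126 higher and 0 to 134 lower, with 0 of both without PSI day 1 or without PSI-F day 1 (3586 and 2377 probe sets at an unadjusted p under 0.05). Without PSI day 3 there were 126 and 134, and without PSI-F day 3 there were 77 and 77. Each of these fits has 3 arrays and no graft type term, and the lone array of a day is assumed to vary like the others. With averaged probe sets, 10 named genes, among them Tnc, Thbs2, Col14a1, Angptl4, Adamts12, Gpnmb and Trem2, no longer passed and 1 newly passed; after loess 3 newly passed. No paired analysis by replicate number was possible because each group has 1 array. Signal over background limits several named genes, which lie near or below the array medians. Among them are most islet genes other than Ins2, and Reg3g and Reg1 in PSI. On day 1 they include Ccn3, Myh3, Has2, Hbb-b2 and, in PSI-F, Il6. On day 3 they include Orm2 in both grafts and Slfn3, Mx1 and Cmpk2 in PSI-F.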

Other observations

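The genes lower on day 3 in both grafts included 5 muscle genes that were picked here after their values were seen and stand for no list. They are not all the muscle genes of that set, which also holds Asb5, Cav3, Jph2 and Klhl40. Muscle genes in it were not counted. Ankrd2, a muscle ankyrin repeat protein, went from 10.02 and 10.06 on day 1 (PSI and PSI-F) to 6.25 and 8.83 on day 3, against 5.26 in Control and 8.07 in Diabetic. Flnc, muscle filamin, went from 9.22 and 9.44 to 7.78 and 7.86, and Pdlim3, a Z-disc protein, from 10.99 and 10.87 to 9.49 and 9.49. Csrp3, the muscle LIM protein, went from 10.40 and 10.26 to 8.64 and 9.13, and Xirp1, another sarcomere protein, from 7.45 and 6.85 to 5.52 and 5.65. Other muscle genes went otherwise, since Ankrd1, a relative of Ankrd2, differed by -1.46 in PSI and 1.06 in PSI-F, and Myl4, an embryonic myosin light chain, by 0.97 and 2.13. The 5 genes were at least 2-fold lower in both grafts. None of the 24 adult contractile genes passed in both, but beside a background of 0.462% that count is no result about them. At any size 18 of the 24 were lower in both, with a median difference of -0.39 (-0.10 in PSI and -0.73 in PSI-F). No share over all genes was counted beside the 18. Acta1, the muscle actin, lay between 12.77 and 12.96 on the 4 arrays.

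A further 5 genes outside the lists, likewise picked after their values were seen, were higher on day 3. Cd5l, a protein of tissue macrophages, rose from 3.68 and 3.53 to 5.02 and 5.38, and Fcna, a ficolin that recognises sugars, from 3.62 and 3.73 to 5.34 and 4.98. Slc40a1, the iron exporter ferroportin, rose from 6.29 and 5.89 to 7.77 and 6.99, Abca1, the cholesterol exporter, from 8.30 and 8.44 to 9.37 and 9.57, and Lipa, the lysosomal lipase, from 6.32 and 6.42 to 7.46 and 7.53. Each of the 5 had both day 3 levels above both day 1 levels, which their choice on these arrays largely sets. Lipid genes did not share a direction, since Lpin1, a phosphatidate phosphatase, differed by -1.39 and -1.77, and Lipg, endothelial lipase, by -1.10 and -2.29.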
